A study of Mus musculus with 14 samples.

Results

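Vitamin D acts on the gut largely through genes for the transport of calcium and other metals, and 9 of them were followed here in the ileum mucosa of mice with and without the nuclear receptor corepressor NCoR1 in intestinal epithelial cells. The genes were chosen by name as vitamin D-linked genes of calcium, manganese and zinc handling, with the zinc importers and metallothioneins of the same cells, and are 9 of the 54532 genes in the count table. They are the catabolic enzyme Cyp24a1, the calcium handling genes Trpv6, S100g and Atp2b1, the manganese exporter Slc30a10, the metal importers Slc39a4 and Slc39a14, and the metallothioneins Mt1 and Mt2. In mice lacking NCoR1 in IECs, Mt1 and Slc30a10 were higher, 5 other genes did not pass the test, Trpv6 was too low to be tested and Cyp24a1 had no read in any mouse. The call of Slc30a10 sat at the threshold and was lost in 17 of 26 alternative settings. Among the 5 that did not pass, S100g did so in 3 of these settings.

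All 14 mice were male, carried NCoR1 flox/flox alleles and were fed a high fat diet (HFD) for 15 weeks. The methods give an age of 7 to 8 weeks at the start of diet experiments in general, but another passage of the study gives an older one, so the age of these mice is uncertain. The 7 WT mice had no Cre, and the 7 IKO mice also carried Cre recombinase under the villin promoter, which is active in the epithelium of the whole intestine from before birth. The mucosa of the ileum was scraped, and 1 RNA-seq library was made per mouse. WT mice received no Cre transgene, so the transgene itself and the loss of NCoR1 cannot be told apart. Scraped mucosa also holds cells without villin, although the samples are labelled as IECs.

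Calcitriol, the active form of vitamin D, binds the vitamin D receptor (VDR), which pairs with a retinoid X receptor (RXR) on DNA, and nuclear receptors without ligand can bind corepressors such as NCoR1. In enterocytes, calcium enters through the apical channel TRPV6, is carried by the calcium-binding protein encoded by S100g and leaves through the basolateral pump encoded by Atp2b1, while CYP24A1 breaks calcitriol down. Metallothioneins are small cysteine-rich proteins that bind zinc and copper, and their genes are switched on by zinc through the factor MTF1, which binds metal response elements (MREs).

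The promoters of Mt1, Mt2 and Slc30a10 are shown, the 3 with the most MRE letters among the 6 members whose promoters were found. The part of these letters in the levels of the genes was not tested. RefSeq promoters on GRCm38.p6 were found for 6 of the 9 genes, namely Mt1, Mt2, Slc30a10, Atp2b1, S100g and Trpv6, and windows of 250 bases before to 30 bases after the annotated start were searched on both strands. Capitals mark the MRE core, TGCACNC or TGCGCNC. The windows lie on the plus strand at chr8:94178839-94179118 for Mt1, chr8:94172368-94172647 for Mt2 and chr1:185454598-185454877 for Slc30a10.
Mt1: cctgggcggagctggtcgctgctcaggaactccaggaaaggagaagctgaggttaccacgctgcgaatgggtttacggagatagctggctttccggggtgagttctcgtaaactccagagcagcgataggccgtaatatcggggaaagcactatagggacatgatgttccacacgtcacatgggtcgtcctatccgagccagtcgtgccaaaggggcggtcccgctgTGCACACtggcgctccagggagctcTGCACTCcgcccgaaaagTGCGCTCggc
Mt2: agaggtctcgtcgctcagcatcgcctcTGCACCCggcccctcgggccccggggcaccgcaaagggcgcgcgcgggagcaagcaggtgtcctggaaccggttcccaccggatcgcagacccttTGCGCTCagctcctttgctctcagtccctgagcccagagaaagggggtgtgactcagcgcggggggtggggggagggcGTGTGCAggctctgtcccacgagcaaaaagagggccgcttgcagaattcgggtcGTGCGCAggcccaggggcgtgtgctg
Slc30a10: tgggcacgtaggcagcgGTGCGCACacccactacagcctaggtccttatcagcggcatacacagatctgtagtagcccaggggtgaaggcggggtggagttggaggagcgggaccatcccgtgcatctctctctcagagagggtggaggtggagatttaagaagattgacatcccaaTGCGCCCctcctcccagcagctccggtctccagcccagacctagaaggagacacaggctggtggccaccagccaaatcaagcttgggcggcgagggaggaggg
The MRE core stood 3 times in the Mt1 window and 4 times in that of Mt2. In the Slc30a10 window there were 3 matches, of which 2 overlap on opposite strands as 1 run of capitals. S100g had 1 match, each of the 2 start sites of Atp2b1 had 1, and Trpv6 had 0. At least 1 match was present in 24.1% of 32851 mouse promoter windows of the same length, and 4 or more matches in 0.405%. A direct repeat of the kind bound by VDR and RXR, 2 copies of GNTCA with 4 bases of any kind between them, was found in 0 of the 6 promoters and in 0.606% of all windows. The Mt2 window ended at 94172647, before the start of Mt2 in the count table, 94172664, so the annotations place this start differently. The letters TATAAA of a TATA box stood 0 times in the windows of Mt1 and Mt2, which does not show that these genes lack one. The numbers of MRE and TATAAA matches hold for these windows only, and matches near other starts were not counted. Such matches describe letters and not binding, and these short windows leave out most of each gene.

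Each mouse had 14749669 to 21557468 reads counted on genes. Levels are given as CPM, which are counts relative to the total of each library after TMM scaling. Differences were tested in edgeR by quasi-likelihood, and adjusted p-values cover the 13846 genes tested by the Benjamini-Hochberg method. Ncor1, at chr11:62316426-62458541, had 135 ± 31.3 CPM (SD, n = 7) in WT and 50.6 ± 10.97 CPM (SD, n = 7) in IKO mice, without overlap (log2 fold change -1.41, SE 0.18, adjusted p = 0.00051). The mitochondrial genome supplied 50.3% of the reads of IKO 4 and 23.9% of those of WT 3, against 3.49% to 10.3% in the others. Markers of smooth muscle summed to 10855 CPM in WT 4, where the next WT mouse had 62.4 CPM and IKO mice had 4.53 to 796 CPM. Results resting on these 3 mice are therefore also given without them. The 10 enterocyte markers were all detected and 0 of them passed in edgeR, DESeq2 or voom or at an unadjusted p under 0.05 in edgeR, with summed levels of 22596 to 103008 CPM in WT and 45342 to 85372 CPM in IKO mice. Markers of non-epithelial cells leaned lower in IKO mice. Fold changes were below 0 in 6 of 6 smooth muscle, 5 of 5 fibroblast, 7 of 7 immune and 2 of 3 endothelial markers. At an unadjusted p under 0.05 in edgeR, 0, 4, 3 and 1 of them were lower, against 18.5% of all genes. In edgeR and voom 0 passed, and DESeq2 called 1 fibroblast and 1 immune marker lower. The part of these cells in the members' levels was not tested.

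Of the 7 members tested, 2 were higher in IKO mice, Mt1 and Slc30a10, and 0 were lower. Across all genes tested, 8.67% were called, 4.38% higher and 4.28% lower. The median log2 fold change was 0.68 over the 7 members and -0.09 over all genes tested. The members were chosen by name with earlier results of these data known, so their contrast with all genes is not independent of these data. The remaining 5, S100g, Atp2b1, Slc39a4, Slc39a14 and Mt2, did not pass. At an unadjusted p under 0.05 in edgeR, 3 members were higher and 0 lower, where 30.4% of all genes reached this threshold, 11.9% higher and 18.5% lower. DESeq2 called 3 higher and 0 lower, with 13.8% of all genes called and 6.4% higher, and voom called 2 higher and 0 lower, with 13.6% of all genes called and 7.17% higher.

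**Figure D1:**
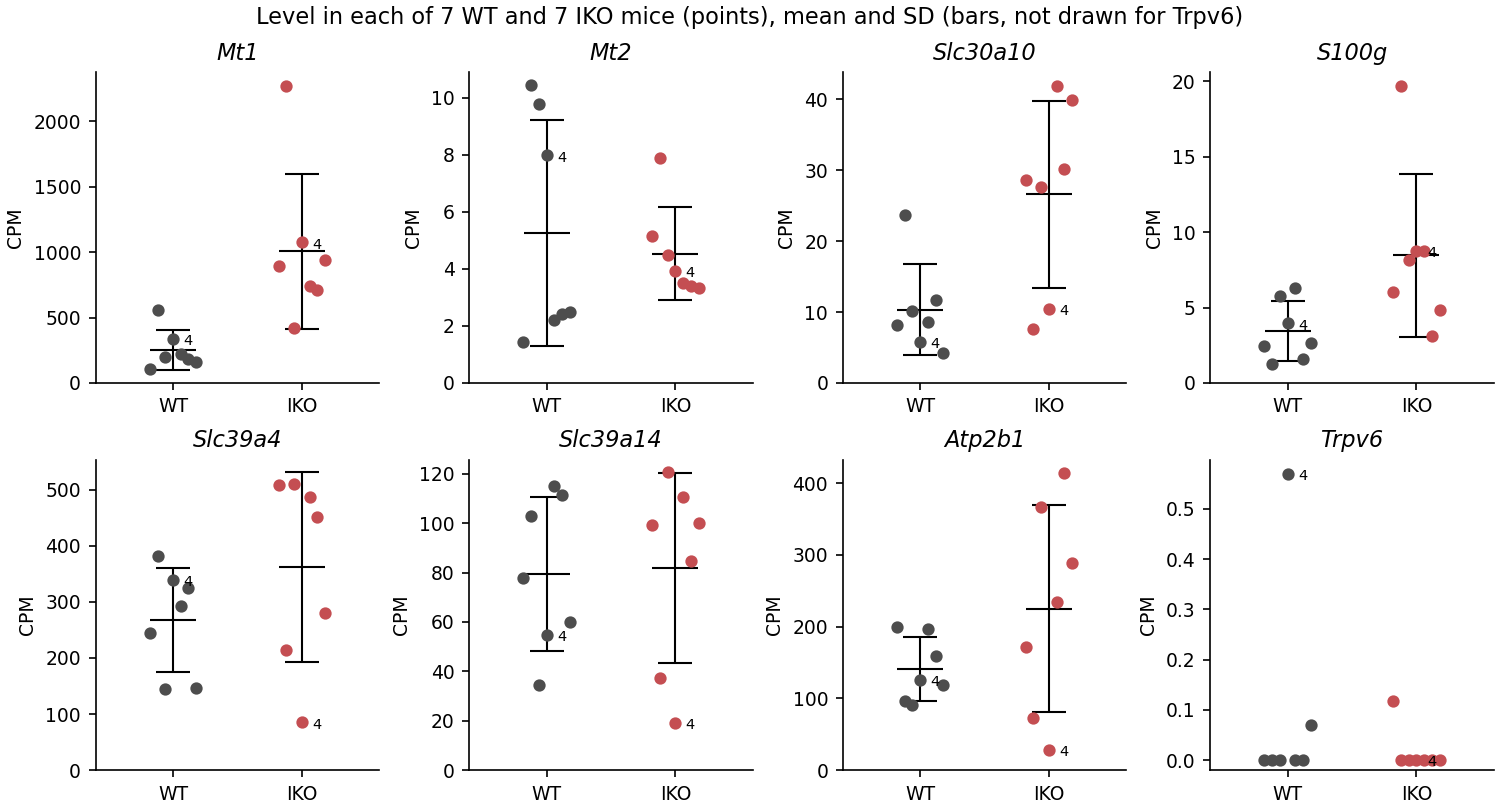
CPM of 8 members in each mouse (points), with the mean and SD as bars except for Trpv6, and with the points of WT 4 and IKO 4 marked 4; each panel has its own linear axis. Mt1 was above the highest WT mouse in 6 of 7 IKO mice, while IKO 2 and IKO 4 were the lowest IKO mice for Slc30a10, Slc39a4, Slc39a14 and Atp2b1.

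Mt1 showed the largest difference among the members. This metallothionein gene lies at chr8:94179082-94180327 on the plus strand. Its level was 105 CPM in the lowest, 202 CPM in the median and 556 CPM in the highest WT mouse. In IKO mice the lowest level was 419.7 CPM, the median 897 CPM and the highest 2266 CPM. Thus 6 of 7 IKO mice lay above WT 2, the highest WT mouse, and IKO 3 alone fell among the WT values. The means were 252 ± 152 CPM and 1007 ± 593 CPM (SD, n = 7 each), a log2 fold change of 2.0 (SE 0.40), or 4.0-fold with a 95% confidence interval of 2.22 to 7.19 (adjusted p = 0.00945, exact permutation p = 0.00117). Mt1 rose in the main test and in each of 26 alternative settings, where the log2 fold change ranged from 1.67 to 2.33 and the adjusted p reached at most 0.0429. Markers of tuft cells summed to 22.2 to 51.6 CPM in WT and 9.51 to 26.2 CPM in IKO mice, and those of stem cells to 57.7 to 179 CPM and 33.2 to 107.5 CPM, with all 5 and all 4 markers detected. Of these, 1 of 4 tuft cell markers tested passed (Avil, lower in IKO mice), and 0 of 4 stem cell markers did, whereas 3 of the latter were lower at an unadjusted p under 0.05 in edgeR (18.5% of all genes were), 0 with DESeq2 and 1 with voom. DESeq2 called 2 tuft cell markers lower, Dclk1 and Avil, and all 4 tested markers of each list had fold changes below 0. The mean log2 CPM of the tuft cell markers had a median of 1.85 in WT and 1.32 in IKO mice (exact permutation p = 0.00699). For the stem cell markers it was 3.34 and 2.39 (exact permutation p = 0.0140), neither p being adjusted for the lists compared. Their part in the differences was not tested, and in bulk tissue fewer cells of a type and less RNA per cell cannot be told apart.

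Mt2, the neighbouring gene of the same family, did not pass. It lies at chr8:94172664-94173568, upstream of Mt1 on the same strand. Its level was 1.43, 2.48 and 10.4 CPM in the lowest, median and highest WT mouse, and 3.31, 3.94 and 7.90 CPM in IKO mice. WT mice fell on both sides of the IKO range, with 3 mice (WT 2, WT 3 and WT 4) above it and 4 below. The log2 fold change was -0.21 (SE 0.44, 95% confidence interval -1.14 to 0.73, adjusted p = 0.778, exact permutation p = 0.809). This sign is not stable: it turned positive in 8 of 26 alternatives, and the log2 fold change was 0.30 without WT 4, WT 3 and IKO 4. The antisense gene Gm45774 covers 73.5% of the exonic bases of Mt2, and 45.8% of its 50-base stretches also occur in Gm45774. Only 32 reads in WT and 20 in IKO mice were given to Gm45774. Whether the counting used strand is not stated, so reads of this pair may have been left out or shared, and the level of Mt2 is uncertain. Mt1 shared 0 of its 50-base stretches with another gene.

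The balance between these metallothionein genes was compared within each library, where the scaling between libraries does not enter. FPKM, counts relative to gene length and library, were used to set genes of different length side by side. The length used for Mt1, 1246 bases, equals its whole span from start to end, whereas that for Mt2, 588 bases, does not. The size of the ratio therefore depends on these lengths, while its change between genotypes does not. Mt1 stood 9.72, 30.4 and 47.4 times above Mt2 in the lowest, median and highest WT mouse. In IKO mice it stood 44.1, 99.5 and 135 times above. The ratio of 6 of 7 IKO mice exceeded that of every WT mouse, and WT 5 was the single WT mouse above an IKO mouse, IKO 3. The mean log2 ratio was 4.72 ± 0.75 in WT and 6.61 ± 0.57 in IKO mice (SD, n = 7 each), a difference of 1.89 (exact two-sided permutation p = 0.00117). The uncertain counting of Mt2 enters this ratio.

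**Figure D2:**
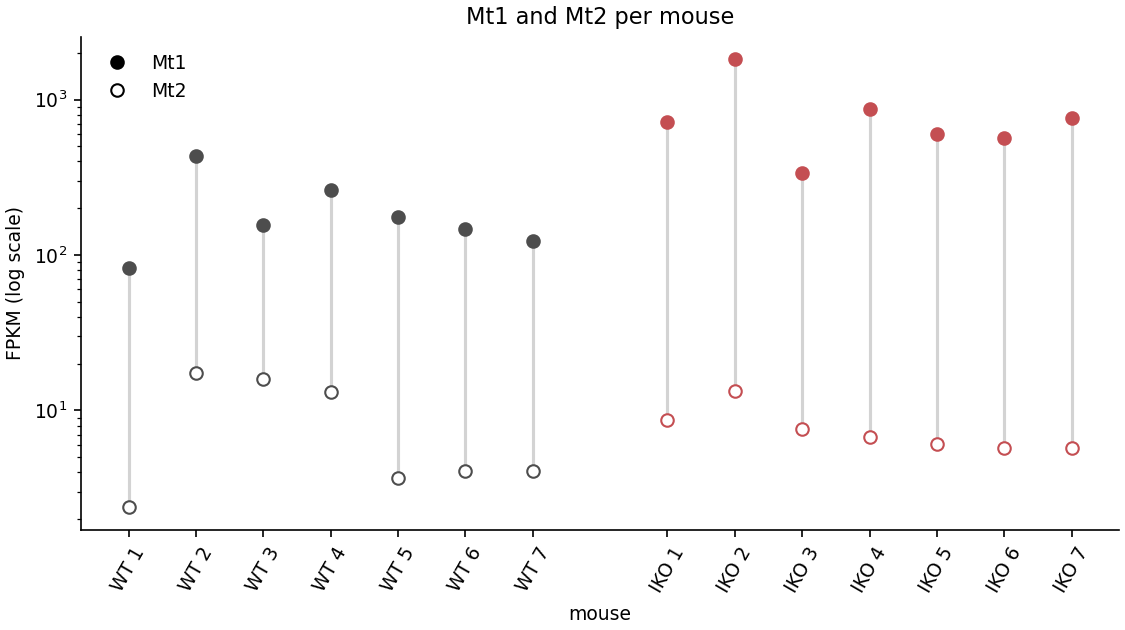
FPKM of Mt1 (filled) and Mt2 (open) in each mouse on a log axis, joined by a line whose length is their ratio. The lines are longer in IKO mice, with a median ratio of 99.5 against 30.4 in WT mice.

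Other genes around this pair were compared to see how far the difference in Mt1 extended. Within 100000 bases of Mt1 and Mt2, the log2 fold changes were -0.70 for Bbs2 (adjusted p = 0.0973), 0.03 for Nup93 (adjusted p = 0.941) and 0.57 for Rpl10-ps5 (adjusted p = 0.210). None of these 3 passed the edgeR test. The other metallothionein genes of the cluster were too low to be tested, Mt3 with 138 counts in WT and 17 in IKO mice and Mt4 with 6 and 23. Mt3 had a median of 0.129 CPM and a highest level of 5.75 CPM in WT mice, so its WT counts came largely from a single mouse.

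Slc30a10 was the other member that was higher. It encodes a manganese exporter and lies at chr1:185454848-185468762 on the plus strand. Its level was 4.28, 8.64 and 23.6 CPM in the lowest, median and highest WT mouse. In IKO mice the corresponding values were 7.66, 28.6 and 41.9 CPM. Above WT 2, the highest WT mouse, stood 5 of 7 IKO mice, whereas IKO 2 and IKO 4 lay within the WT range. The means were 10.4 ± 6.37 CPM and 26.6 ± 13.2 CPM (SD, n = 7 each), which is 2.58-fold with a 95% confidence interval of 1.41 to 4.71 (log2 fold change 1.37, SE 0.41, adjusted p = 0.0495, exact permutation p = 0.0181). This call sits at the threshold and was lost in 17 of 26 alternatives. It held when WT 2, IKO 2 or IKO 4 was left out, and the adjusted p was 0.0615 to 0.107 when any 1 of the other 11 mice was left out. With the mouse number as a block the adjusted p was 0.124, and without WT 4, WT 3 and IKO 4 it was 0.104.

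The antisense lincRNA Gm2061 at chr1:185447116-185455568 shares 9.13% of the exonic bases of Slc30a10 at its start. Gm2061 had 2.51, 3.89 and 5.91 CPM in the lowest, median and highest WT mouse and 9.78, 18.3 and 34.1 CPM in IKO mice. All 7 IKO mice were above all WT mice, with a log2 fold change of 2.43 (SE 0.28, adjusted p = 0.000225). Levels of all IKO mice lay above those of all WT mice for 1.83% of the genes tested, and below them for 1.26%. Without a stated strand setting, reads from the shared stretch cannot be assigned to either gene, and the part of Gm2061 in the difference of Slc30a10 was not tested.

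Of the calcium handling members, 0 passed in edgeR or voom, and S100g had an unadjusted p under 0.05 and passed with DESeq2. S100g encodes the small cytosolic calbindin of enterocytes and lies at chrX:162961992-162964599 on the minus strand. Its level was 1.22, 2.62 and 6.28 CPM in the lowest, median and highest WT mouse, and 3.10, 8.15 and 19.7 CPM in IKO mice. All 7 IKO mice were above the WT median, but 3 of them lay within the WT range, and IKO 2 was far above the others. The log2 fold change was 1.31 (SE 0.43), or 2.48-fold with a 95% confidence interval of 1.32 to 4.66 (unadjusted p = 0.0076, adjusted p = 0.0649, exact permutation p = 0.0146). The adjusted p fell below 0.05 with DESeq2 (0.0203), without WT 5 (0.0461) and without IKO 6 (0.0454), and stayed above it in the other 23 alternatives. S100g is normally highest in the proximal small intestine. The mean log2 CPM of 7 proximal markers had a median of 4.49 in WT and 4.43 in IKO mice (exact permutation p = 0.967). Their summed level was 577 to 3273 CPM in WT and 1996 to 8383 CPM in IKO mice, and it includes Fabp1, a fatty acid-binding protein gene that was higher in IKO mice (802 against 3607 CPM, log2 fold change 2.17, adjusted p = 0.0277). The other 4 tested did not pass, and the lactase gene Lct had 799 CPM in WT and 398 CPM in IKO mice (log2 fold change -1.01, adjusted p = 0.254). Too low to be tested were Cybrd1, with 174 counts in WT and 31 in IKO mice, and Ctse, with 141 and 46. The part of these markers in the difference of S100g was not tested.

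Atp2b1, the plasma membrane calcium pump gene at chr10:98914406-99026143, had 91.3, 126 and 199 CPM in the lowest, median and highest WT mouse. In IKO mice it had 28.3, 235 and 414 CPM. The IKO mice spread on both sides of the WT mice, with 4 above the highest WT mouse and with IKO 2 and IKO 4 below the lowest. The log2 fold change was 0.68 (SE 0.44, 95% confidence interval -0.26 to 1.61, adjusted p = 0.306) and was 0.88 without IKO 4 (adjusted p = 0.111).

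Trpv6, the apical calcium channel gene at chr6:41620624-41636405, was hardly detected. It had 12 counts in WT 4, 2 in WT 7, 2 in IKO 1 and 0 in the other mice, which is too few for a test, and most of them came from the mouse with high smooth muscle markers. Cyp24a1 at chr2:170482708-170497145, a gene that responds strongly to calcitriol in intestine, had 0 counts in 14 of 14 mice. At this depth a count of 0 allows up to 0.0209 CPM over the WT and 0.0262 CPM over the IKO group, and 0.106 to 0.328 CPM in a single library, counting error only. Cyp24a1 thus lay below these limits in both groups, and only a difference between levels below them could not be seen.

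The zinc importers did not pass in edgeR, DESeq2 or voom, and neither had an unadjusted p under 0.05 in edgeR. Slc39a4, the apical zinc importer gene at chr15:76612383-76617384, had 145, 293 and 382 CPM in the lowest, median and highest WT mouse. In IKO mice it had 85.4, 452 and 509.7 CPM. While 4 IKO mice were above the highest WT mouse, IKO 4 was the lowest of all mice. The log2 fold change was 0.44 (SE 0.35, adjusted p = 0.415), and 0.61 without IKO 4 (adjusted p = 0.164). Slc39a14, a zinc and manganese importer gene at chr14:70303469-70351425, had 34.6, 77.7 and 115 CPM in WT and 19.2, 99.4 and 121 CPM in IKO mice in the same order. The groups overlapped almost wholly, with a log2 fold change of 0.04 (SE 0.36, 95% confidence interval -0.73 to 0.81, adjusted p = 0.952) whose sign turned in 14 of 26 alternatives.

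Levels of the members were ordered on the FPKM scale, which takes gene length into account. This order depends on the lengths used, and that of Mt1 equals its whole span. In WT mice the order was Mt1 (197 ± 119 FPKM), Slc39a4 (84.4 ± 29.7), Atp2b1 (9.08 ± 2.95), Mt2 (8.69 ± 6.53), Slc39a14 (7.39 ± 2.95), S100g (6.94 ± 4.03) and Slc30a10 (1.74 ± 1.07, SD, n = 7 for each). Among Atp2b1, Mt2, Slc39a14 and S100g, neighbours in this order did not differ beyond their spread, whereas Slc39a4 was above Atp2b1 in 7 of 7 mice and S100g above Slc30a10 in 6 of 7, with no overlap of mean ± SD. The ranges of mean ± SD of Mt1 and Slc39a4 also touched, although Mt1 was higher in 7 of 7 mice. In IKO mice Mt1 (811 ± 476 FPKM) and Slc39a4 (117 ± 54.1) again led, followed by S100g (17.7 ± 11.2), Atp2b1 (14.8 ± 9.43), Slc39a14 (7.76 ± 3.66), Mt2 (7.71 ± 2.74) and Slc30a10 (4.58 ± 2.29, SD, n = 7 for each). From S100g down to Slc30a10, each gene overlapped its neighbour in this order, although Atp2b1 was above Slc39a14 in 7 of 7 IKO mice. Trpv6 and Cyp24a1 were last in both genotypes.

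The members did not all vary in the same direction between mice. IKO 2 had the highest Mt1, S100g and, among IKO mice, Mt2, but the lowest Slc30a10 of the IKO mice. Among 42 correlations of log2 CPM between pairs of members within a genotype (n = 7 mice), 0 passed after Benjamini-Hochberg adjustment (smallest adjusted p = 0.193, exact permutation test). The smallest unadjusted p belonged to Slc39a4 and Slc39a14 in IKO mice (Pearson's r 0.940, Spearman's rho 0.821, exact permutation p = 0.00615 for r), and r was 0.243 without the 2 mice farthest from the median, so the relation rests on them. In IKO mice, r was 0.731 to 0.940 for every pair among Atp2b1, Slc30a10, Slc39a4 and Slc39a14. Without the 2 mice farthest from the median of the pair's first gene, it was -0.557 to 0.243. With 7 mice per genotype, a pair that did not pass may still vary together.

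To place the members, 95 related genes were compared in the same fit. Of 75 tested, 5 were higher and 1 was lower in IKO mice, 8.0% in all, near the 8.67% of all genes. The other 20 were too low.

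**Figure D3:**
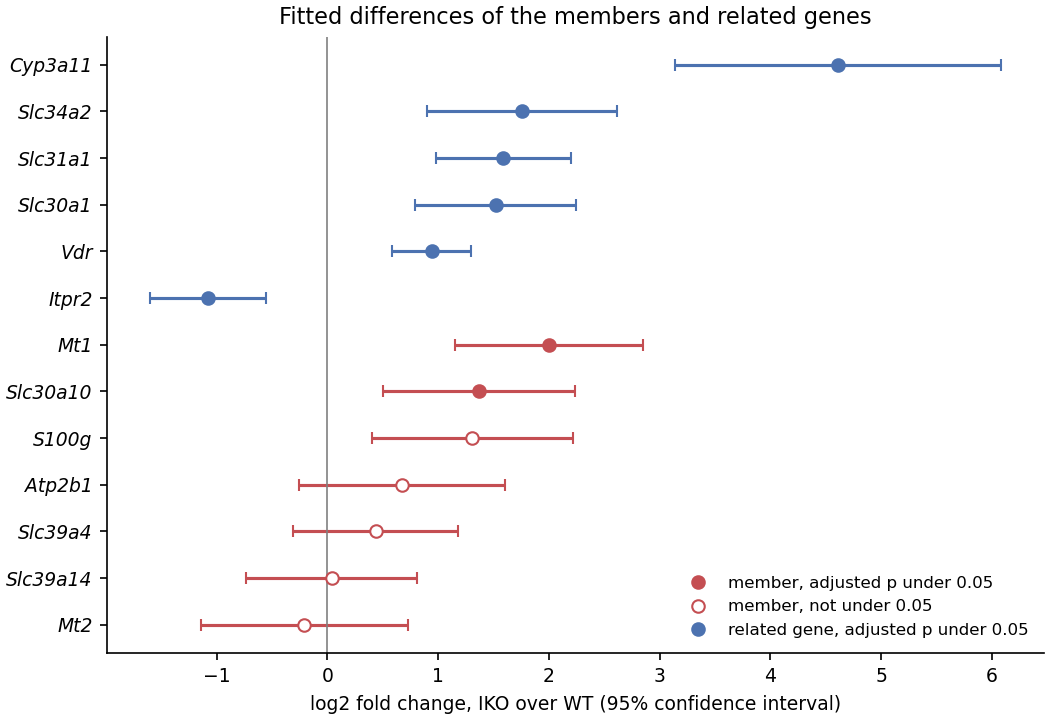
Fitted log2 fold change of IKO over WT mice with its 95% confidence interval for the 7 members tested and the 6 related genes that passed. Filled points passed at an adjusted p under 0.05; the members range from -0.21 for Mt2 to 2.0 for Mt1, and Itpr2 is the single related gene that was lower.

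Of the 8 genes tested among the receptor, its partners and vitamin D enzymes, Vdr alone passed. The receptor gene, at chr15:97854425-97910630, had 205, 267 and 348 CPM in the lowest, median and highest WT mouse and 421, 532 and 588 CPM in IKO mice. Its levels did not overlap, with a log2 fold change of 0.94 (SE 0.17, adjusted p = 0.00549, exact permutation p = 0.000583, the smallest that 3432 divisions can give), and it passed in 26 of 26 alternatives. The log2 fold change was 0.37 for its partner gene Rxra (adjusted p = 0.130) and, for the vitamin D hydroxylase gene Cyp27a1, -1.0 (adjusted p = 0.111). Cyp27b1, which makes calcitriol, had 9 counts in WT and 0 in IKO mice.

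Of 10 other genes tested that are linked to vitamin D in intestine, 2 were higher and 0 lower, against 4.38% higher over all genes. The fold changes were above 0 in 5 and below 0 in 5, and this list too was chosen with earlier results known. Cyp3a11, a detoxifying enzyme that several nuclear receptors regulate, had 7.71, 27.1 and 60.2 CPM in the lowest, median and highest WT mouse and 38.5, 509 and 1480 CPM in IKO mice. In 6 of 7 IKO mice it was above all WT mice, with a log2 fold change of 4.61 (SE 0.69, adjusted p = 0.00179), although reads of this family of near-identical genes may be split between its members. Slc34a2, the intestinal phosphate transporter, had 292, 377 and 581 CPM in WT and 156, 1381 and 2238 CPM in IKO mice in the same order, with 6 of 7 IKO mice above all WT mice. It rose by a log2 fold change of 1.76 (SE 0.41, adjusted p = 0.0182), a call lost in 4 of 26 alternatives. Trpv5, the channel closest to Trpv6, had 0 counts, and Calb1 had 10 in WT and 1 in IKO mice.

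Among other genes of metal transport, the exporter list and the copper list each held 1 gene that passed, and the importer list held 0. Slc30a1, the zinc exporter of the plasma membrane, had 24.4, 36.3 and 47.1 CPM in the lowest, median and highest WT mouse and 21.8, 106 and 147 CPM in IKO mice. It was higher in IKO mice (log2 fold change 1.52, adjusted p = 0.0165), with 5 of 7 above all WT mice, and was 1 of 7 tested in its list. This call was lost with the mouse number as a block (adjusted p = 0.0541) and on FPKM without a filter (0.0855). Slc31a1, the high-affinity copper importer, had 79.3, 150 and 201 CPM in WT and 174, 504 and 603 CPM in IKO mice in the same order, with 6 of 7 above all WT mice. It was also higher (log2 fold change 1.59, adjusted p = 0.00604), the single gene called of 13 tested with Mtf1, copper and divalent metal transport. For Mtf1 itself the log2 fold change was 0.47 (adjusted p = 0.218). Of 10 other Slc39 importers tested, 0 passed at an adjusted p under 0.05, with log2 fold changes from -1.05 to 0.53. DESeq2 and voom also called 0 of them, and at an unadjusted p under 0.05 in edgeR 2 of 10 were lower, Slc39a10 and Slc39a13, against 18.5% of all genes.

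Other calcium pumps, channels and store proteins mostly did not pass. Itpr2, a calcium release channel of the endoplasmic reticulum, was lower in IKO mice, with 32.0 ± 7.60 CPM in WT and 15.1 ± 6.30 CPM in IKO mice (SD, n = 7 each), and was the single gene that edgeR called of 20 tested (log2 fold change -1.08, adjusted p = 0.0175). Its call was lost without WT 4, WT 3 and IKO 4 (adjusted p = 0.0690). Of 7 S100 genes tested other than S100g, 0 passed in edgeR or DESeq2, with log2 fold changes from -0.17 to 0.57. At an unadjusted p under 0.05 in edgeR 1 of 7 was higher, S100a10, against 11.9% of all genes, and voom called 1.

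**Figure D4:**
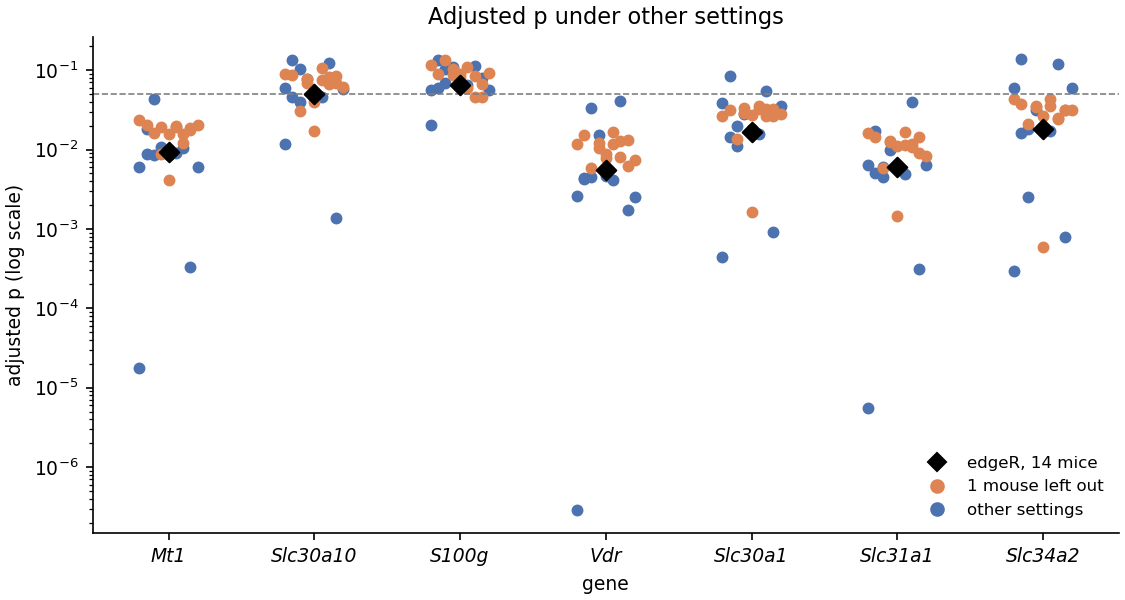
Adjusted p of 7 genes in the edgeR fit of all 14 mice (diamond), with 1 mouse left out (orange) and under the other settings (blue), on a log axis with a line at 0.05. Mt1, Vdr and Slc31a1 stayed below the line throughout, while Slc30a10 and S100g lay around it.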

How the data were processed

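Ileal mucosa RNA-seq of 7 WT and 7 IKO mice was analyzed, with genotypes taken from the sample titles and KO columns read as IKO. The authors aligned the reads to mm10 with HISAT2 2.0.5 and made the deposited counts per gene with featureCounts 1.5.0-p3 from NEBNext Ultra libraries, and strandedness is not stated. The deposited FPKM equal counts divided by gene length times 1 constant per sample, as checked on the values. DESeq2 1.16.1 is also named in the submitters' processing notes.

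Genes were filtered with filterByExpr, scaled by TMM and compared with edgeR 4.0.16 under R 4.3.3 by glmQLFit and glmQLFTest, genotype being the single term. The SE is the log2 fold change divided by the square root of F, and log2 CPM add a prior count of 2. Exact permutation tests were two-sided. Alternatives were DESeq2 1.42.0, RLE and upper quartile scaling, removal of the filter, a minimum of 10 counts in each sample, removal of mitochondrially encoded genes, the sample number as a block, voom with quality weights and limma 3.58.1 on log2 FPKM (pseudocounts 1 and 0.1, above 0.5 in at least 7 samples, or no filter), each mouse left out in turn, and WT 4, WT 3 and IKO 4 left out together. The code was tested on simulated counts. Depth was 14749669 to 21557468 counts per sample.

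Members and lists were chosen by name with earlier results of these data known. Named genes are the members, Ncor1, related genes with an adjusted p under 0.05 and up to 3 others of known role per list, and the 3 genes varying most like Mt1 and S100g. Genes overlapping or near a member, the markers named and Slc39a10, Slc39a13 and S100a10 were chosen after their values were seen. Of the identifiers, 54409 are in GENCODE M21 of GRCm38, where the 9 members have the same coordinates. Protein sequences and the promoters of Cyp24a1, Slc39a4 and Slc39a14 were not used here.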

Additional observations from a re-analysis of the deposited data

Results flagged for a closer look

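Each of 22 measures, the members' log2 CPM, shares and marker scores among them, was examined in both genotypes for a mouse far from the others, by its gap to the nearest mouse as a share of the range (Dixon's test at 95%). Of 44 groups, 5 held such a mouse, where chance gives 2.2, and all 5 concern the libraries and not a member. The share of counts on mitochondrially encoded genes was 50.3% in IKO 4 (gap 0.944 of the range) and 23.9% in WT 3 (gap 0.676). The mean log2 CPM of smooth muscle markers was 9.80 in WT 4 (gap 0.695). That of immune cell markers was 2.31 in IKO 1 (gap 0.739), and that of pancreatic acinar markers was -0.84 in WT 3 (gap 0.782). Their part in the levels of the members was not tested beyond leaving these mice out.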

How the results depend on the processing

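Mt1 kept its direction and passed in all 26 alternatives, as did Vdr, Slc31a1 and Cyp3a11. The number of members called was 2, and it was 1 with no filter, with the block, in the 3 FPKM fits and without WT 4, WT 3 and IKO 4, and 1 to 2 with 1 mouse left out. Over all genes 1200 were called (607 higher, 593 lower), against 2445 with DESeq2, 508 with no filter, 362 with the block, 1889 with voom, 614 on FPKM without a filter, 433 without the 3 mice and 515 to 1371 with 1 mouse left out. Upper quartile scaling gave 552 higher and 910 lower, and log2(FPKM + 1) gave 708 and 328 with a median log2 fold change of 0.02 in place of -0.09. Equal numbers in both genotypes did not pair the mice (correlations -0.31 to 0.23), and the replicate block ended the calls of Slc30a10 (adjusted p = 0.124), Slc30a1 (0.0541) and Slc34a2 (0.119) among the members and related genes. Of the other called genes that are named, Fabp1 (0.0527) and Avil (0.121) also lost their calls under the block, while Ncor1, Gm2061 and Cox7a1 did not. The calls of Slc34a2 and Slc30a1 were also lost on FPKM without a filter (0.137 and 0.0855), and that of Slc34a2 with pseudocounts of 1 (0.0593) and 0.1 (0.0601).

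Signs turned for members that did not pass. The log2 fold change of Slc39a14, 0.04, was -0.0195 with upper quartile scaling, -0.0078 with at least 10 counts, -0.0795 with the block, -0.0094 on FPKM with a pseudocount of 1 and without a filter, -0.0346 with 0.1, -0.0194 without the 3 mice and -0.0947 to 0.22 with 1 mouse left out. That of Mt2, -0.21, was 0.11 with the block, 0.66 with voom, 0.10 on FPKM with a pseudocount of 1 and without a filter, 0.15 with 0.1, 0.30 without the 3 mice and -0.40 to 0.0562 with 1 mouse left out. The cause was not tested. Cyp24a1 and Trpv6 are limited by depth, and the counts of Mt2 and Slc30a10 by overlapping genes.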

Other observations

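Genes whose variation between mice was most like that of Mt1 or S100g were listed as a description, from log2 CPM centred within genotype over 14 mice and 11269 genes, all of which share libraries and depth. Closest to Mt1 were Cox7a1 (Pearson's r 0.991), a subunit of cytochrome c oxidase, Atp5j (0.982), a subunit of ATP synthase, and Ifi35 (0.959), an interferon-induced gene. Without IKO 4 these values were 0.993, 0.983 and 0.962. Cox7a1 was also higher in IKO mice (log2 fold change 1.48, edgeR adjusted p = 0.0396), whereas Atp5j (0.64, adjusted p = 0.0848) and Ifi35 (0.24, adjusted p = 0.557) did not pass. Closest to S100g were Snrnp35 (r 0.846), Zcchc17 (0.832) and Cox10 (0.825), none of which passed the test between genotypes.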
